A study of Mus musculus with 8 samples.

Results

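Colony-stimulating factors (CSFs) and their receptors were examined in tumor-associated macrophages (TAMs) from miR-21-/- and WT mice. The genes are the ligand Csf1 and the receptor genes Csf1r, Csf2ra, Csf2rb, Csf2rb2, Csf3r, Il3ra and Flt3, which were picked by symbol, with no measured value in the rule. All 8 were found among the 53247 genes of the deposited table, each on 1 row. The mice had been implanted s.c. with LLC cells, a line of mouse lung carcinoma, and after 14 days cells positive for CD45, CD11b, MHC II and F4/80 were sorted from the tumors. RNA-Seq was done on 4 samples from WT mice and 4 from mice labelled miR-21 null, all of strain C57/BL6 and given as 10 weeks old. The null mice carried the Mir21atm1Yoli allele in all their cells, so that every host cell type of the tumor lacked miR-21, while the implanted LLC cells were the same in both genotypes. miR-21-/- replicate 1 has a title with a joined pair of numbers, which may or may not stand for pooled mice, and counts here as 1 sample.

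CSF1 and IL-34 bind CSF1R, a receptor tyrosine kinase on which most tissue macrophages and TAMs depend for survival and growth. GM-CSF, IL-3 and IL-5 each bind an α chain of their own (encoded by Csf2ra, Il3ra and Il5ra) that pairs with the common β chain encoded by Csf2rb, which signals through JAK2 and STAT5; mice carry an additional copy, Csf2rb2, whose product pairs with the IL-3 receptor. CSF3R is the G-CSF receptor, best known from neutrophils, and FLT3 is a kinase related to CSF1R that acts in progenitors and dendritic cells.

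The values are CPM, counts per 1e+06 reads. Depth per sample, in units of 1e+06 reads, was 20.2 to 33.4, so that 1 read was worth 0.0300 to 0.0495 CPM. Mir21a was listed at 0.0001 CPM, the value of a gene with no reads, in every sample, WT or miR-21-/-, and so could not check the labels. Of 13850 genes tested with limma, 986 (7.12%) passed the strict threshold, an adjusted p (Benjamini-Hochberg) of at most 0.005 with a fold change above 1.5, 400 of them higher (2.89%) and 586 lower (4.23%) in miR-21-/- TAMs. At an adjusted p of 0.05 with no limit on fold change, 36.0% differed, 9.49% higher and 26.5% lower. The split of higher and lower genes depended on the scaling: 40.6% of the genes past the strict threshold were higher with the deposited CPM, 59.8% with scaling by the median of ratios and 59.3% with quantile normalization. Of the genes at an adjusted p of 0.05, these shares were 26.4%, 51.4% and 45.7%. The shares of all genes set beside the lists below are those with the deposited CPM. In the following, rose and fell are used of genes with an adjusted p of at most 0.05.

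Csf1, Csf1r and Csf3r fell in miR-21-/- TAMs, while both β chain genes, Csf2ra, Il3ra and Flt3 did not pass the test. All 8 genes passed the filter on low values. None of the 8 passed the strict threshold in limma (0 genes, against 7.12% of all genes tested), and 5 had an unadjusted p under 0.05, as did 46.4% of all genes tested. At an adjusted p of 0.05, 3 of the 8 passed, all lower, against 36.0% of all genes in either direction and 26.5% in the lower direction. For 5 of the 8 genes the ranges of the genotypes were separate, against 35.1% of all genes tested. The median log2 difference was -0.28 for the 8 genes and -0.10 for all genes tested.

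**Figure D1:**
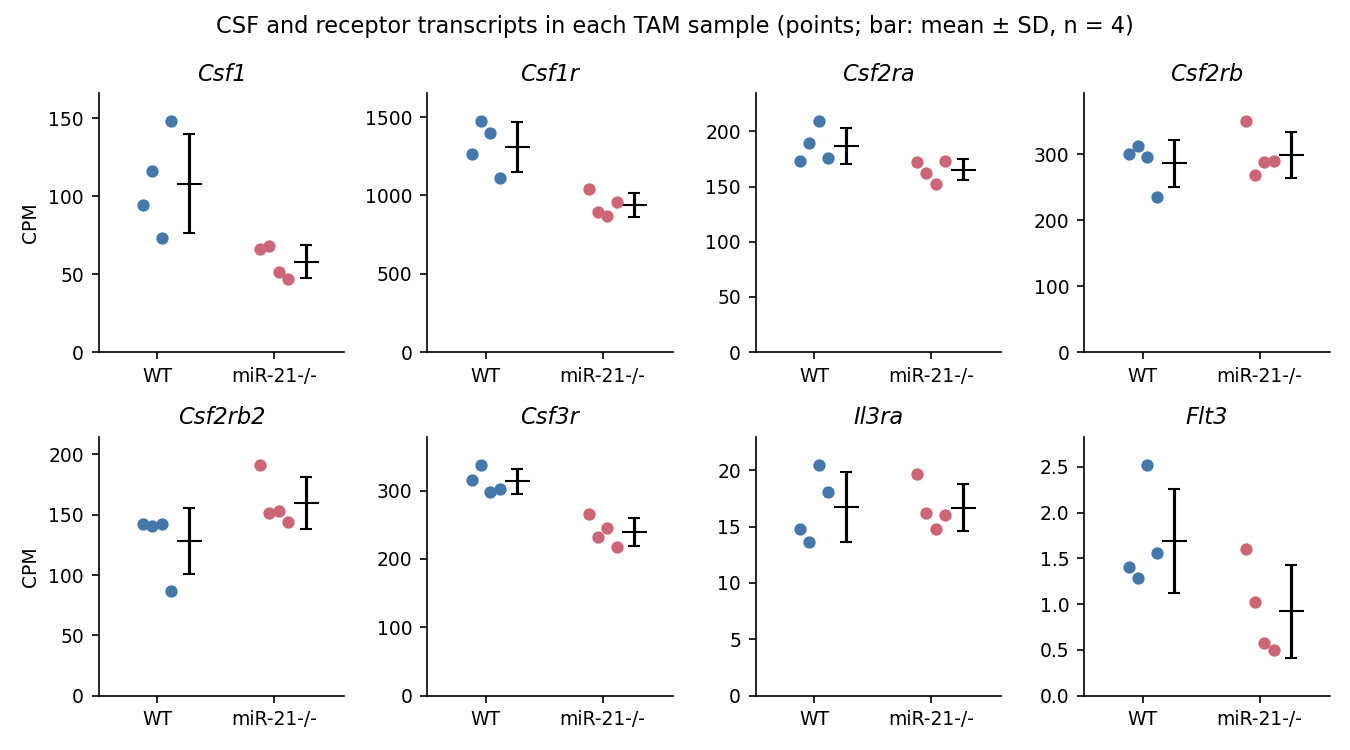
CPM of each gene in each TAM sample (points) with the mean ± SD of 4 samples per genotype, on linear axes from 0. The WT and miR-21-/- points of Csf1, Csf1r and Csf3r are separate, with all miR-21-/- values lower, whereas those of Csf2rb and Il3ra overlap.

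Csf1 (GRCm38 chromosome 3, bases 107741048 to 107760469, minus strand) encodes the ligand of CSF1R and, of Csf1, Csf2 and Csf3, was the only one above 1 CPM in these cells. It was at 94.4, 116, 73.4 and 148 CPM in WT replicates 1 to 4 and at 66.3, 68.0, 51.4 and 46.8 CPM in miR-21-/- replicates 1 to 4. The lowest WT sample was above the highest miR-21-/- sample, and the WT samples were spread more widely. Its mean was 108 ± 31.9 CPM and fell to 58.1 ± 10.6 CPM (SD, n = 4 each), with a log2 difference of -0.85 (SE 0.20, 95% interval -1.29 to -0.42, limma adjusted p = 0.00812) on the log2(CPM + 1) scale. This is a fold of 0.553. Without WT replicate 4, the highest of the WT samples, the log2 difference was -0.69 (limma adjusted p = 0.0122). In a bulk sample, fewer cells of a type that makes a transcript and less of that transcript per cell cannot be told apart.

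Because miR-21 is what the mice lack, its mature sequence is shown with the stretches of the Csf1 3′ UTR that match its seed. The capitals of the miRNA mark the seed, bases 2 to 8, and those of Csf1 mark the bases that pair with it; the miRNA is from RefSeq (GRCm38.p6, chr11:86584120-86584141, minus strand) and the Csf1 stretches are from the longest annotated 3′ UTR in GENCODE vM21.
mmu-miR-21a-5p: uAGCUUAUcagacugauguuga
Csf1 3′ UTR, site at base 1180: gtgtgcaccccTAAGCTtgaaattgatc
Csf1 3′ UTR, site at base 1628: agagtggtctgTAAGCTccatcagccct
No site of 7 or 8 bases (the 8 bases are ATAAGCTA, read on the transcript strand, and a 7-base site lacks its first or its last base) was found in the 3′ UTRs of the 8 genes. Csf1 had 2 sites of 6 bases (TAAGCT) in 2111 bases and Csf1r had 2 in 1669 bases, whereas the other 6 genes had none. Among the 11449 tested genes that have a 3′ UTR in this annotation, 12.4% had a site of 7 or 8 bases and 26.6% a site of 6 or more. A match describes the letters only. Both genes with a match had lower means in the miR-21-/- samples, as did Csf2ra, Csf3r and Flt3, which have no match.

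Transcripts of the other ligands were scarce. Il34, the alternative ligand of CSF1R, had 16, 27, 13 and 23 reads in the WT samples and 9, 14, 19 and 9 reads in the miR-21-/- samples, which is 0.757 ± 0.199 and 0.446 ± 0.196 CPM (SD, n = 4 each; exact permutation test, two-sided, p = 0.0857, adjusted over 6 genes 0.257). Csf3, the gene for G-CSF, had 3, 0, 0 and 2 reads in WT and 14, 31, 11 and 19 reads in miR-21-/- TAMs. These are 0.0451 ± 0.0526 and 0.626 ± 0.219 CPM (SD, n = 4 each). Every miR-21-/- sample exceeded every WT sample, with an exact permutation p of 0.0286, the smallest that 4 against 4 samples allow, and 0.171 after adjustment over the 6 genes below the filter. In the limma fit without a filter, the adjusted p of Csf3 was 0.00389. Csf2, Il3, Il5 and the receptor gene Il5ra had at most 6 reads in any sample. Flt3l, the ligand of FLT3, was at 9.07 ± 0.710 and 7.58 ± 0.782 CPM (log2 difference -0.23, limma adjusted p = 0.0721), and Kitl, the ligand of the related kinase KIT, at 7.67 ± 1.45 and 6.89 ± 0.773 CPM (-0.13, adjusted p = 0.459).

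Csf1r, the receptor of CSF1 and IL-34, had the highest level per exon length of the family. It was at 1265, 1474, 1395 and 1108 CPM in WT TAMs and at 1044, 892, 866 and 955 CPM in miR-21-/- TAMs. All miR-21-/- samples were below all WT samples. Its mean of 1311 ± 160.0 CPM fell to 939 ± 79.1 CPM (SD, n = 4 each), with a log2 difference of -0.48 (SE 0.10, 95% interval -0.70 to -0.25, limma adjusted p = 0.00538) and a fold of 0.719. Both the adjusted p and the fold change missed the strict threshold. Csf1r is a gene of the plus strand of chromosome 18 (bases 61105572 to 61132149 of GRCm38) and overlaps the row of Hmgxb3 on the opposite strand, which had a mean of 26.3 CPM. The ratio of the ligand to its receptor, Csf1 as a percent of Csf1r CPM, was 8.49 ± 3.44% in WT and 6.20 ± 1.13% in miR-21-/- TAMs, with overlapping groups.

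Macrophage markers bear on whether the cells differed as a whole. All 11 on the list were detected, from Lyz2 with the most CPM to Mertk with the fewest, and their summed level was 13832 to 16421 CPM in WT TAMs and 15171 to 18157 CPM in miR-21-/- TAMs, and without Lyz2 it was 10465 to 11235 and 10334 to 10997 CPM. Of the 11, Fcgr1 rose (0.75 on the log2 scale), Adgre1, which encodes the F4/80 used in the sort, fell by 0.38 on the log2 scale, and the other 9 did not pass the test. Among all genes tested, 36.0% passed, 9.49% higher and 26.5% lower. The part of macrophage content in the lower Csf1r was not tested beyond these values.

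Flt3 (chromosome 5, bases 147330741 to 147400489, minus strand) was scarce, at 1.40, 1.28, 2.52 and 1.55 CPM in WT TAMs and 1.605, 1.02, 0.576 and 0.496 CPM in miR-21-/- TAMs. These values rest on 42, 37, 51 and 39 reads and on 43, 34, 15 and 15 reads. miR-21-/- replicate 1 lay within the WT range and the other miR-21-/- samples lay below it. The means were 1.69 ± 0.566 and 0.924 ± 0.509 CPM (SD, n = 4 each), and the log2 difference of -0.50 (SE 0.20, 95% interval -0.94 to -0.054) had a limma adjusted p of 0.0759. Without miR-21-/- replicate 1 it was -0.66 (adjusted p = 0.0235). On the log2(CPM + 1) scale the difference of so low a gene is understated, and with a pseudocount of 0.1 CPM it was -0.89 (adjusted p = 0.0714). The summed dendritic cell markers, a cell type that uses FLT3, were at 22.0 to 34.0 CPM in WT TAMs and 23.1 to 49.9 CPM in miR-21-/- TAMs. Of the 8 of them tested, Clec9a rose (log2 difference 1.26), Cd209a and Dpp4 fell (-1.28 and -1.04) and Batf3, with the most CPM, did not pass. Of all genes tested, 9.49% were higher and 26.5% lower. Siglech, below the filter on low values, had the lowest mean of the list, 0.0521 CPM. Cd209a was not called without miR-21-/- replicate 3 (adjusted p = 0.0505). Their part in the Flt3 values was not tested.

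The values of Csf2rb (chromosome 15, bases 78325990 to 78351000, plus strand), the common β chain gene, were mixed between the genotypes. It was at 300.1, 313, 296 and 234 CPM in WT TAMs and at 349.8, 269, 288 and 290.2 CPM in miR-21-/- TAMs. The groups overlapped, with WT replicate 4 the lowest and miR-21-/- replicate 1 the highest of the samples. The means were 286 ± 34.97 and 299 ± 35.09 CPM (SD, n = 4 each), with a log2 difference of 0.067 (SE 0.10, 95% interval -0.17 to 0.30, limma adjusted p = 0.648). The interval allows a change of either sign, and the estimate was -0.025 without WT replicate 4 and -0.010 without miR-21-/- replicate 1.

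Csf2rb2 (chromosome 15, bases 78282517 to 78305603, minus strand), the additional β chain gene of the mouse, was at 142, 141, 142 and 86.7 CPM in WT TAMs and at 191, 151, 153 and 144 CPM in miR-21-/- TAMs. The groups did not overlap, but 3 of the WT samples lay just below the lowest miR-21-/- sample and WT replicate 4 lay far below them. The means were 128 ± 27.5 and 160.0 ± 21.4 CPM (SD, n = 4 each), with a log2 difference of 0.34 (SE 0.16, 95% interval -0.011 to 0.69, limma adjusted p = 0.118). Without WT replicate 4 the log2 difference was 0.16 (adjusted p = 0.186), so that the estimate rested largely on this sample.

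Csf2rb and Csf2rb2 are close paralogs, and reads could be assigned to either: 892 stretches of 50 bases occur in transcripts of both genes, 17.1% of those of Csf2rb and 18.8% of those of Csf2rb2. The sum of both rows, which does not depend on that assignment, was 414 ± 62.1 CPM in WT TAMs and 459 ± 55.5 CPM in miR-21-/- TAMs, with overlapping groups and a log2 difference of 0.16, which was 0.038 without WT replicate 4 and 0.074 without miR-21-/- replicate 1. Csf2rb2 made up 32.2%, 31.1%, 32.4% and 26.99% of the pair in WT and 35.4%, 36.0%, 34.8% and 33.1% in miR-21-/- TAMs. All miR-21-/- shares were above all WT shares, by less than 1 percentage point between the nearest samples, and no test was made of this share, which was computed after the values of both genes had been seen.

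**Figure D2:**
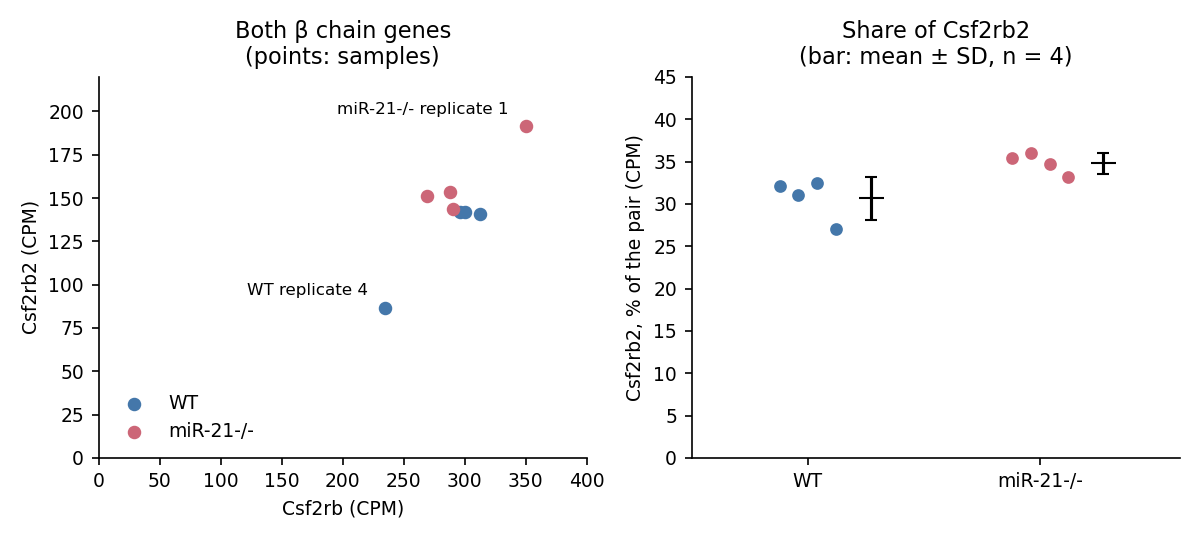
Left, CPM of Csf2rb (x axis) and Csf2rb2 (y axis) in each sample, with the lowest and the highest sample named. Right, the share of Csf2rb2 in the summed CPM of both genes (points, samples; bar, mean ± SD, n = 4), 30.7 ± 2.52% in WT and 34.8 ± 1.24% in miR-21-/- TAMs.

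The α chains that pair with the β chain did not pass the test either. Csf2ra (chromosome 19, bases 61224402 to 61228418, minus strand), the GM-CSF receptor α chain, was at 173.6, 189, 209 and 175.9 CPM in WT TAMs and at 172.5, 163, 153 and 173.5 CPM in miR-21-/- TAMs. The groups were separate by about 0.1 CPM between the nearest samples. The means were 187 ± 16.3 and 165 ± 9.76 CPM (SD, n = 4 each), with a log2 difference of -0.17 (SE 0.071, 95% interval -0.33 to -0.016, limma adjusted p = 0.0797), which was -0.062 after rescaling by the median of ratios. Il3ra (chromosome 14, bases 14346275 to 14356011, plus strand), the IL-3 receptor α chain, was at 14.8, 13.6, 20.48 and 18.1 CPM in WT TAMs and at 19.7, 16.2, 14.8 and 16.0 CPM in miR-21-/- TAMs. The groups overlapped over most of their range. Its means were 16.8 ± 3.12 and 16.7 ± 2.11 CPM (SD, n = 4 each), with a log2 difference of 0.0036 (SE 0.13, 95% interval -0.28 to 0.29, limma adjusted p = 0.984). The CPM ratio of Csf2ra to both β chain genes was 0.459 ± 0.0693 in WT and 0.363 ± 0.0373 in miR-21-/- TAMs, with overlapping groups.

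Csf3r (chromosome 4, bases 126024550 to 126044440, plus strand), the G-CSF receptor, had the smallest adjusted p of the 8 genes. It was at 315, 338, 298 and 302 CPM in WT TAMs and at 265, 232, 245 and 217 CPM in miR-21-/- TAMs. The groups were well separated relative to their spread. Its mean of 313 ± 17.9 CPM fell to 239.9 ± 20.4 CPM (SD, n = 4 each), with a log2 difference of -0.39 (SE 0.071, 95% interval -0.54 to -0.23, limma adjusted p = 0.00259) and a fold of 0.765, under the fold change limit of 1.5. Neutrophils express this receptor strongly, and their markers were read beside it. The summed level of the 9 markers was 525 to 923 CPM in WT TAMs and 392 to 545 CPM in miR-21-/- TAMs, with overlapping ranges, and without S100a9, the highest of them, 276 to 440 CPM and 199 to 273 CPM with no overlap. Of the 8 tested, 5 fell, where 26.5% of all genes tested were lower, with log2 differences of -0.52 for S100a8, -0.62 for S100a9, -0.36 for Cxcr2 and -0.81 each for Retnlg and Mmp8, and none rose. Of these 5, Mmp8 alone remained at an adjusted p of 0.05 under both other scalings and with each sample left out; without WT replicate 2 the adjusted p was 0.122 for S100a8, 0.0763 for S100a9, 0.0863 for Cxcr2 and 0.103 for Retnlg. Ly6g, a defining neutrophil marker, was at 1.91 ± 0.711 and 2.59 ± 0.756 CPM, and Camp was lowest at 0.108 CPM. The cells had been sorted for MHC II and F4/80, and transcripts of most of these markers were still detected in them. The part of neutrophils in the lower Csf3r was not tested.

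**Figure D3:**
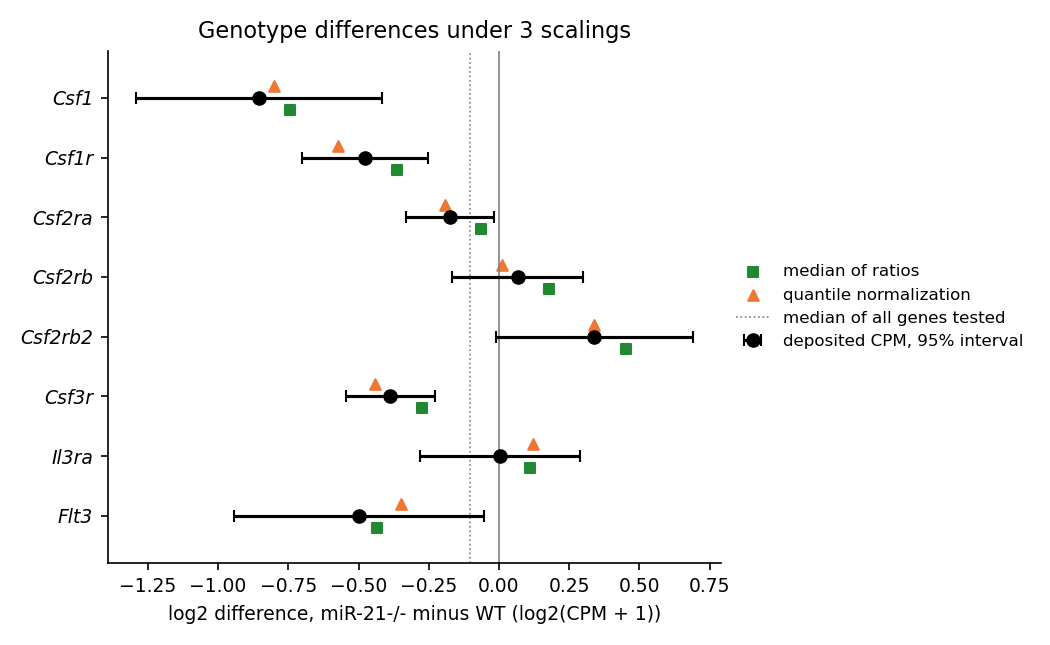
Log2 difference between genotypes (miR-21-/- minus WT, log2(CPM + 1)) of each gene with its 95% interval from limma, and the estimates under the other scalings. The intervals of Csf1, Csf1r and Csf3r lie below the median of all genes (-0.10), and rescaling by the median of ratios moved each estimate to the right.

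The calls of Csf1, Csf1r and Csf3r held when the scaling was changed. After rescaling by the median of ratios, which moved the median of all genes to -0.0030, the log2 differences were -0.74 for Csf1 (limma adjusted p = 0.0212), -0.36 for Csf1r (0.0197) and -0.27 for Csf3r (0.0210). After quantile normalization they were -0.80, -0.57 and -0.44. Under all 17 alternatives run, single samples left out included, these 3 genes kept an adjusted p under 0.05, with the highest values 0.0348, 0.0243 and 0.0210.

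Levels were compared between genes only per length, as CPM per kb of annotated exon. Csf1r was highest in WT TAMs at 227 ± 27.7 CPM per kb (SD, n = 4), followed by Csf3r at 86.8 ± 4.95, Csf2ra at 65.1 ± 5.68, Csf2rb at 39.3 ± 4.81, Csf2rb2 at 27.01 ± 5.81, Csf1 at 20.46 ± 6.04, Il3ra at 5.65 ± 1.05 and Flt3 at 0.274 ± 0.0917 CPM per kb. Of these neighbors, Csf2rb2 and Csf1 overlapped in their sample values. With these exon lengths, the order of the means was the same in miR-21-/- TAMs, where Csf1r was at 163 ± 13.7 CPM per kb and Csf1 at 11.002 ± 2.01 CPM per kb. There, Csf3r overlapped Csf2ra and Csf2rb overlapped Csf2rb2, whereas Csf2rb2 and Csf1 were separate. The exon length of Csf2rb, the union of its annotated transcripts (7277 bases), exceeds its longest coding transcript (4900 bases), so its level per kb is a lower estimate. Its place in the order, and whether the order is the same in both genotypes, depend on the length used.

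**Figure D4:**
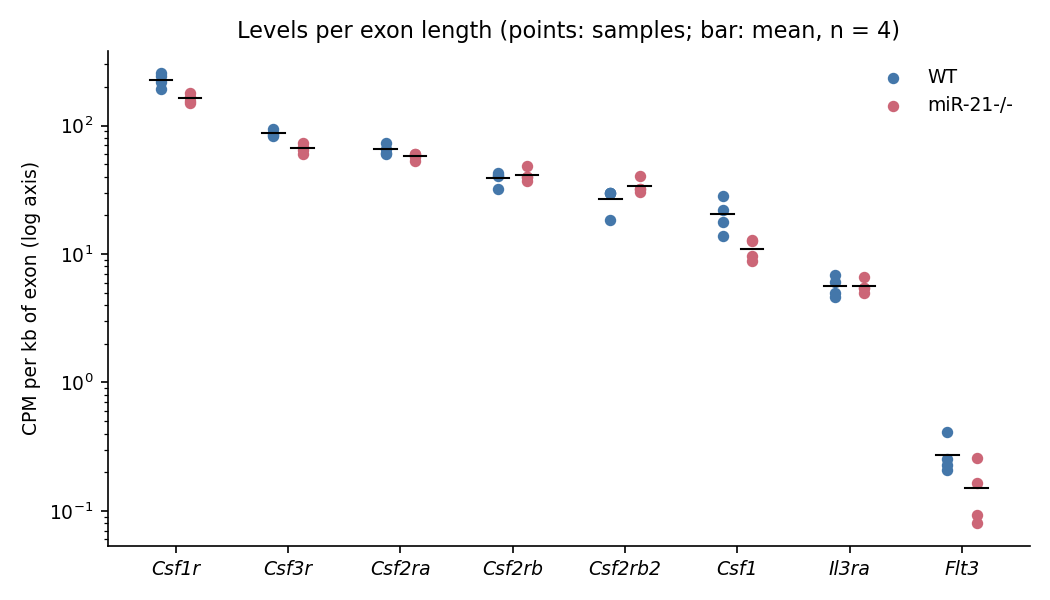
Level of each gene as CPM per kb of annotated exon on a log axis, in the 4 WT and 4 miR-21-/- samples (points) with the mean (bar). The genes span from 0.274 CPM per kb for Flt3 to 227 CPM per kb for Csf1r in WT TAMs, in the same order of means in both genotypes with the exon lengths used.

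Promoters are shown for Csf1 and Csf3r, members that fell. The sequences are from RefSeq (GRCm38.p6) and run from 250 bases before to 50 bases after the start of the gene in RefSeq, Csf1 at chr3:107760420-107760719 on the minus strand and Csf3r at chr4:126024409-126024708 on the plus strand. The RefSeq start of Csf1 is that of the deposited table, whereas that of Csf3r, base 126024659, lies 109 bases inside the gene as deposited. Those of Il3ra and Csf2rb2 also differ from the deposited starts. Capitals mark matches to a motif of PU.1, the myeloid transcription factor encoded by Spi1.
Csf1: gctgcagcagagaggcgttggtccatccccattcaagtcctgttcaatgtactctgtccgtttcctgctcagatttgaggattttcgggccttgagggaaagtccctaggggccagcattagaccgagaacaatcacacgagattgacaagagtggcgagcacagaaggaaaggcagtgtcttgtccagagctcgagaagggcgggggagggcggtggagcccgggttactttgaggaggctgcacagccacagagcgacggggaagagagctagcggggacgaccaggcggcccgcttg
Csf3r: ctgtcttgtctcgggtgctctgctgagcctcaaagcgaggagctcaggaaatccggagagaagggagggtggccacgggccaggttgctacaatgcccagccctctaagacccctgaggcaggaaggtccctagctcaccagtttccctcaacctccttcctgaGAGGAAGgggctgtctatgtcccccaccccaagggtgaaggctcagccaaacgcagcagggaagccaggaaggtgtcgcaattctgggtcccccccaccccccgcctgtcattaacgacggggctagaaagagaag
The motifs searched, on both strands, were GAGGAAG (PU.1), TTCNNNGAA (STAT) and TGANTCA (AP-1), which 13.6%, 8.30% and 7.81% of 32851 promoters of this length hold. Of the 6 family members in the promoter table, Csf3r held 1 PU.1 motif starting at base -86 from the RefSeq start, which is 23 bases inside the gene from the deposited start, Csf2ra held 2 that overlap by 1 base, and Csf2rb2 held 2 PU.1 motifs and 1 STAT motif. Csf1, Il3ra and Flt3 held none of the 3 motifs in this window, which says nothing about binding elsewhere. Spi1 itself was at 252 ± 8.13 and 246 ± 8.87 CPM (log2 difference -0.036, limma adjusted p = 0.606).

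Other genes of the pathways were read from lists written from general knowledge, with the called genes named after their values were seen where no naming rule covers them. Among 20 kinases and adaptors downstream of CSF1R, 5 passed an adjusted p of 0.05, which is 25% against 36.0% of all genes. This number was 2 without WT replicate 2, 3 without miR-21-/- replicate 3 and 8 without WT replicate 4. Fyn, a Src family kinase, and Cblb, a ubiquitin ligase, rose (log2 differences 0.50 and 0.37), while the PI3K subunits Pik3cg and Pik3cd and the kinase ERK1 (Mapk3) fell (-0.43, -0.25 and -0.23). Pik3cd and Mapk3 did not pass after rescaling by the median of ratios. With 1 sample left out, the adjusted p reached 0.0740 for Fyn (without miR-21-/- replicate 4) and, without WT replicate 2, 0.0613 for Cblb and 0.0588 for Pik3cd. Src had the lowest value, -0.46, with an adjusted p of 0.202. The median of the list was -0.11, close to that of all genes, and 0.0015 after rescaling by the median of ratios.

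Of 12 tested inhibitors of CSF1R and β chain signaling, 4 rose and 2 fell, against 9.49% higher and 26.5% lower among all genes tested. Socs1, a JAK inhibitor, rose from 5.18 ± 1.09 to 26.2 ± 5.36 CPM (SD, n = 4 each; log2 difference 2.14, limma adjusted p = 1.66e-05) and was the only one past the strict threshold. Socs3, Cish and Dok2 rose by 0.44, 0.40 and 0.29 on the log2 scale. The adaptor Sh2b3 and the ERK phosphatase Dusp6 fell (-0.36 and -0.34), and Dusp6 did not pass after the median of ratios. The call of Cish was lost in 5 of the 8 fits with 1 sample left out, with an adjusted p of up to 0.0887 without WT replicate 2. The median of the list was -0.053, and 0.059 after rescaling by the median of ratios.

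In the JAK-STAT arm of the β chain, the kinase gene Jak2 rose from 69.7 ± 3.20 to 97.1 ± 6.09 CPM (SD, n = 4 each; log2 difference 0.47, limma adjusted p = 0.000348), and the transcription factor gene Stat3 rose by 0.36 on the log2 scale. Stat5a and Stat5b, the STATs the β chain is best known for, had log2 differences of 0.10 (adjusted p = 0.228) and -0.042 (0.669).

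Genes known to be induced by the ligands were read next. Of 11 tested genes induced by GM-CSF, 3 passed, which is 27.3% against 36.0% of all genes, and 1 passed without WT replicate 1, WT replicate 2 or miR-21-/- replicate 2. The kinase gene Pim1 and Cish rose (0.49 and 0.40) and Irf4, at 3.91 ± 1.33 and 2.00 ± 0.574 CPM, fell by 0.69 on the log2 scale, a call that did not hold under either other scaling or without WT replicate 2 (adjusted p = 0.0813). In this list 4 were higher and 0 lower after the median of ratios, and 2 higher and 0 lower after quantile normalization. Of 10 genes induced by CSF1, 3 passed, 30% against 36.0% of all genes. Ccnd1, which encodes cyclin D1, rose by 0.39, whereas Myc and Fos, transcription factors of the growth response, fell (-0.49 and -0.52). After the median of ratios, 3 of the 10 were higher and 1 lower, and after quantile normalization 1 was higher and 2 lower. The call of Fos was lost under 10 of 17 alternatives, among them the median of ratios and leaving out WT replicate 3 (adjusted p = 0.111), and Egr2 had the highest value, 0.50, with an adjusted p of 0.104. The medians of the lists were 0.11 and 0.077, and 0.22 and 0.19 after rescaling by the median of ratios.

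Of 10 transcription factors known to act on Csf1r, 2 rose and 3 fell, beside the 9.49% higher and 26.5% lower of all genes tested. Cebpa, a myeloid factor, fell from 71.2 ± 10.7 to 45.8 ± 4.47 CPM (SD, n = 4 each; log2 difference -0.62, limma adjusted p = 0.00195), past the strict threshold. Runx1 and Maf fell by 0.27 and 0.25 on the log2 scale, but not after rescaling by the median of ratios, and Maf not without miR-21-/- replicate 4 (adjusted p = 0.0910). Mitf and Irf8 rose by 0.56 and 0.54. The median of the list was 0.028, with -0.015 after quantile normalization and 0.14 after rescaling by the median of ratios.

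Among 16 tested receptor tyrosine kinases other than CSF1R and FLT3, 7 fell and 1 rose, where 26.5% of all genes tested were lower and 9.49% higher. The median of the list was -0.38. Met, the receptor for hepatocyte growth factor, rose from 21.8 ± 1.36 to 43.9 ± 6.98 CPM (SD, n = 4 each; log2 difference 0.97, limma adjusted p = 0.000188). Pdgfra and Pdgfrb, PDGF receptors related to CSF1R and typical of fibroblasts and pericytes, fell from 15.7 ± 4.88 to 3.45 ± 1.04 CPM and from 4.93 ± 1.15 to 1.52 ± 0.207 CPM (log2 differences -1.89 and -1.22). Fgfr1, Axl and Insr, receptors for FGFs, GAS6 and insulin, fell by 1.07, 0.84 and 0.61 on the log2 scale. Kit, of the same family as Csf1r, was at 2.40 ± 0.612 and 1.55 ± 0.438 CPM (-0.42, adjusted p = 0.0732).

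Of 12 tested growth factors made by macrophages, 2 rose and 4 fell, read against 9.49% higher and 26.5% lower of all genes tested. Igf1 fell from 42.8 ± 19.5 to 5.80 ± 2.08 CPM and Gas6, the ligand of AXL, from 155 ± 63.4 to 37.4 ± 9.66 CPM (SD, n = 4 each; log2 differences -2.58 and -1.93, limma adjusted p = 0.000683 and 0.00163). Vegfa rose from 49.6 ± 13.5 to 99.98 ± 8.99 CPM (1.03, adjusted p = 0.00102) and Hgf, the ligand of MET, by 0.48. Pdgfa and Pdgfc fell by 0.84 and 0.88 on the log2 scale, and Pdgfc did not pass after quantile normalization or without WT replicate 2 (adjusted p = 0.0685). The median of the list was 0.048, and 0.12 after rescaling by the median of ratios.

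**Figure D5:**
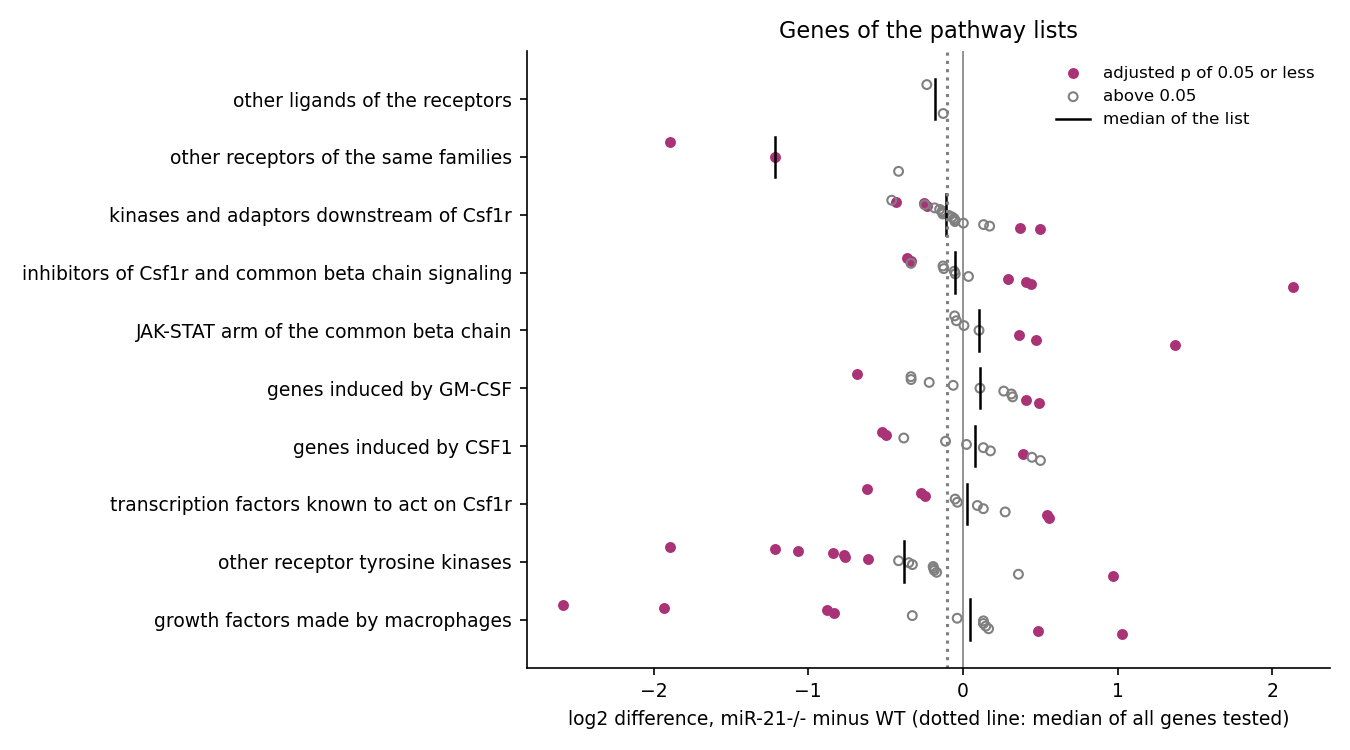
Log2 difference of each tested gene of the pathway lists (points, filled at an adjusted p of 0.05 or less), the median of each list (vertical bars) and that of all genes (dotted line, -0.10). Of the lists with at least 7 genes tested, receptor tyrosine kinases have the lowest median, -0.38, and Socs1 has the highest single value, 2.14.

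Stromal and other markers moved along with several of these genes, and their calls stand beside 26.5% lower and 9.49% higher of all genes tested. Of 8 tested markers of fibroblasts, endothelium or carcinoma cells, Col1a1, Col1a2, Col3a1 and Krt8 fell, Col3a1 from 36.4 ± 15.5 to 6.995 ± 7.54 CPM, and Pdpn, a stromal marker also made by macrophages, rose from 9.89 ± 5.91 to 112 ± 37.3 CPM. Their summed level was 78.9 to 144 CPM in WT TAMs and 104 to 219 CPM in miR-21-/- TAMs, with overlapping ranges, and Epcam, with a mean of 0.0608 CPM, had the lowest mean of the list. Without Pdpn, a sum taken after the data were seen, the other 8 markers were at 75.7 to 137 CPM in WT TAMs and 29.6 to 61.2 CPM in miR-21-/- TAMs, lower and with no overlap. The call of Krt8 was lost without WT replicate 2 (adjusted p = 0.0758). Fibroblasts also make Csf1, Pdgfra and Igf1, and the part of such cells in the lower values of these genes was not tested. The cells had been sorted for CD45, CD11b, MHC II and F4/80, and transcripts of the collagen genes named above were still detected in them. Markers of basophils, mast cells or eosinophils, some of which carry IL-3 receptors, summed to 5.35 to 6.55 CPM in WT TAMs and 2.32 to 3.87 CPM in miR-21-/- TAMs without overlap, Cpa3 and Siglecf falling, Gata2 being highest and Epx listed at 0.0001 CPM. Monocyte markers, with Plac8 the only 1 of 6 that fell, summed to 692 to 1160 and 600 to 1079 CPM, from Ccr2 as the highest to Ly6c2 as the lowest. T or NK cell markers, of which Cd8a and Nkg7 rose, summed to 8.24 to 10.9 and 6.80 to 31.4 CPM, with Ncr1 lowest and Nkg7 not called without WT replicate 2 (adjusted p = 0.0998), and B cell markers to 11.4 to 17.6 and 3.84 to 11.3 CPM, with Cd79b highest and falling and Ms4a1 lowest. Without the highest gene of each list, the monocyte sums were 300.4 to 491 and 327 to 593 CPM and the B cell sums 1.43 to 4.47 and 0.810 to 5.63 CPM, both overlapping.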

How the data were processed

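RNA-Seq libraries of mRNA from sorted TAMs, 4 WT and 4 miR-21-/-, were analysed. The authors deposited 1 table of CPM (counts per 1e+06 reads) per gene and sample, each value raised by 0.0001. The submitters' processing notes name STAR, Partek 7.0 and the build mm10. Strand and the rule for reads shared between genes are not given in the sources used here, so overlapping genes and close paralogs are uncertain. Of the rows, 93.2% have a symbol in GENCODE vM21, of which 97.1% have the same start there.

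Depth was read from the steps of low values and was 20.2 to 33.4 in units of 1e+06 reads, so that 3 reads are 0.0899 to 0.148 CPM. Between 72.7% and 73.7% of values up to 20 reads were whole within 0.02 reads, so whole reads were not recovered and no count test was run. The number of samples, 4 a genotype, limits the precision, as does the number of reads for scarce transcripts; read numbers cover counting error only. The labels name biological replicates without saying which animals they came from, so p-values measure the spread between these samples.

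From the deposited CPM, log2(CPM + 1) was fitted by genotype with limma 3.58.1 in R 4.3.3 (lmFit, eBayes with an intensity trend) over the 13850 of 53247 genes whose mean reached 1 per 1e+06 of the column totals, and p-values were adjusted over all of them (Benjamini-Hochberg). The strict threshold was an adjusted p of at most 0.005 with a fold change above 1.5, and the wider one an adjusted p of at most 0.05. Fold changes on this scale understate the change of low genes. Genes below the filter were tested with exact permutation tests, two-sided, over samples. No set test was made. Marker sums without the gene with the most CPM were added after the data were seen. Tables and figures were made with Python 3.11.15, pandas 2.3.3, scipy 1.17.1 and matplotlib 3.10.9.

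The family members and the lists of pathway and marker genes were chosen with earlier results of these data known. Genes named are the members, Mir21a, list genes past the strict threshold or with the highest or lowest log2 difference of a list, the highest and lowest marker of each marker list, and the 2 genes with the profile most like that of each member. A few genes that fall under these criteria are not reported here. Other list genes and markers named were chosen after their values were seen. Alternatives were pseudocounts of 0.1 and 10 CPM, quantile normalization, median of ratios, a filter of 5 per 1e+06 or none, the replicate number as a block, arrayWeights, eBayes without the trend, other limits and leaving out each sample in turn.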

Additional observations from a re-analysis of the deposited data

Results flagged for a closer look

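In 16 groups of 4 samples (8 genes in each genotype), the gap between the most extreme sample and its nearest neighbor was set against Dixon's 95% critical value. That value was exceeded once, by Csf2rb2 in WT replicate 4, measured at 86.7 CPM where the other WT samples had 141 to 142 CPM, a gap of 0.975 of the group's range. Chance alone flags about 1 in 20 groups, so 1 of 16 is near what chance gives. In the same sample Csf1 was the highest, and Csf1r and Csf2rb the lowest, of the WT values.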

How the results depend on the processing

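Csf1, Csf1r and Csf3r kept their direction and an adjusted p at or under 0.05 in limma under all 17 alternatives, with log2 differences of -1.02 to -0.69, -0.57 to -0.36 and -0.44 to -0.27. The genes past the strict threshold were 452 with a pseudocount of 10 CPM, 547 with no filter, 4982 at an adjusted p of 0.05 with no fold change limit and 684 to 1002 with 1 sample left out. Of the 8 members, the number past it was 1 with arrayWeights, 1 at an adjusted p of 0.05 with the fold limit, 3 without that limit, and 0 to 1 with 1 sample left out (Csf1 without WT replicate 3, log2 difference -1.02, adjusted p = 0.00326). The number of members at an adjusted p of 0.05 was 5 with arrayWeights and 1 with the fold limit, and 3 to 4 with 1 sample left out. With arrayWeights, Csf2ra was called at -0.19 (adjusted p = 0.0498) and Flt3 at -0.55 (0.0400), and Csf2rb was at -0.0033. With 1 sample left out, the log2 difference was -0.025 to 0.12 for Csf2rb, -0.084 to 0.10 for Il3ra, both changing sign, and -0.66 to -0.36 for Flt3. The cause of these changes was not tested.

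Deviations from the group means were compared between samples of the same replicate number in the labels, which differ from the numbers in some miR-21-/- titles. Their correlations were 0.083, -0.11, -0.14 and 0.22, the last being the highest of any WT and miR-21-/- pair. With 4 samples a genotype, this check cannot settle whether the numbers pair the samples. With the replicate block, Csf2rb2 was at 0.34 (adjusted p = 0.0428), and 4 members instead of 3 were at an adjusted p of 0.05. Count tests were not run, since whole reads were not recovered, no symbol had more than 1 row to sum, and the filter of 5 per 1e+06 left no value for Flt3. Depth limits Flt3, Il34, Csf2, Csf3, Il3 and Il5, which rest on at most 51 reads per sample.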

Other observations

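The genes with the profile most like that of each member over the 8 samples were looked up among 13849 others, by the root mean square difference of log2(CPM + 1) after centering each gene on its mean. For Csf1 they were Angptl2, an angiopoietin-like secreted protein, and Pcdhgc5, a protocadherin, with differences of 0.0824 and 0.106 against a median of 0.51 over all genes. For Csf1r they were Tbc1d12 and Kank3 (0.0464 and 0.0508, against 0.27), and for Csf3r the DNA repair gene Xpc and the RNA decay gene Smg6 (0.0407 and 0.0503, against 0.23). Csf2ra was close to Trp53rka, Csf2rb to Gm5939 and Lysmd4, Csf2rb2 to Rffl and Fam109b, Il3ra to Zfp689 and Mllt6, and Flt3 to Cacnb3 and Icos. These are descriptions over 8 samples that share the genotype contrast.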
